A study of Mus musculus with 14 samples.

Results

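Integrins are cell surface receptors built from an alpha and a beta chain, and they attach epithelial cells to the extracellular matrix and pass signals from it into the cell. Laminins, secreted trimers of an alpha, a beta and a gamma chain, form with type IV collagen, nidogens and the proteoglycans perlecan and agrin the basement membrane on which mammary epithelium rests. Dystroglycan is a further laminin receptor, and fibronectin, tenascin C and thrombospondins are matrix proteins that integrins bind. The genes described are all integrin alpha and beta genes, laminin chains, collagen IV chains, nidogens and thrombospondins 1 to 4, together with Fn1, Tnc, Hspg2, Agrn and Dag1, picked by gene symbol. They came to 52 genes of 22180 measured, represented by 54 of 23521 probe sets that carry a single gene symbol. Itga10 was not analysed here.

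The cells were luminal cells of the mammary glands of adult virgin female mice, sorted into Lu-pos (CD24+ ICAM1+) and Lu-neg (CD24+ ICAM1-) populations. The paper labels basal cells CD24+ ICAM1+ as well, as a subset gated apart from Lu-pos on CD24 and ICAM-1. Antibodies to CD45 and CD31, which recognise leukocytes and endothelium, were used in the same sort. CD24 is an epithelial surface marker and ICAM-1 an adhesion molecule that itself binds leukocyte integrins. RNA of 7 Lu-pos and 7 Lu-neg samples was hybridised to 14 whole-transcript arrays, and each Lu-pos sample was paired with the Lu-neg sample of the same replicate number. Both samples of a pair came from 1 pool of at least 12 glands of females without a transgene or treatment named in the labels. The females were BALB/cByJ JAX and C57Bl/6, but the sources used here do not say which pool was which strain, and glands within a pool were not measured apart.

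All levels below are log2 intensities of a gene's brightest probe set, which compare samples but not different genes. A gene was taken as above background where its group mean exceeded 3.73, the 95th percentile of the means of 1394 olfactory and vomeronasal receptor genes. A gene was called where limma, with the pair as a block, gave an adjusted p below 0.05. The sorted protein's gene Icam1 was higher in Lu-pos by 1.12 on the log2 scale (adjusted p = 0.0403, higher in 6 of 7 pairs), and Cd24a differed by -0.20 (adjusted p = 0.159).

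The identity of the cells was checked on marker genes before the results. All 9 luminal markers were above background in these arrays, as were all 11 measured basal or myoepithelial markers, 6 of 10 endothelial markers, 6 of 10 fibroblast markers, 3 of 11 immune markers and 0 of 4 platelet markers. Of all 22180 genes, 11425 were above background, so the endothelial, fibroblast and immune counts do not by themselves show such cells. None of the basal markers was called, and their mean ranged from 5.01 to 6.19 in Lu-pos arrays and from 4.11 to 6.60 in Lu-neg arrays. Lu-neg 2 and Lu-neg 7 stood apart with 6.60 each. Among markers of other cells, Vwf and Eng of the endothelial list and Dcn of the fibroblast list were lower in Lu-pos. Endothelial means ranged from 3.47 to 5.62 in Lu-pos and from 4.02 to 5.65 in Lu-neg, and fibroblast means from 4.29 to 5.44 in Lu-pos and from 3.88 to 4.93 in Lu-neg. Several members are genes that basal, endothelial and stromal cells also express. In these bulk samples fewer cells of a type and less RNA per cell cannot be told apart.

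Of the 52 genes, 14 were called. Lu-pos cells had higher levels of 10 genes, Thbs1, Itgb8, Itga2, Itga8, Lama3, Lamb1, Lamb3, Hspg2, Lama4 and Col4a5, and lower levels of 4 genes, Lama5, Itgb5, Itga5 and Itga3. Over all genes 4.35% were called higher and 7.19% lower in Lu-pos, so that 26.9% of the 52 genes and 11.5% of all genes were called in either direction. The median log2 fold change was 0.08 over the 52 genes and -0.02 over all genes. In 11 of the 14 called genes the difference had 1 sign in all 7 pairs, and 11 differed at least 1.5-fold. The calls were made on the same 7 pairs, so these counts are not independent of them. The 7 Lu-pos values lay above all 7 Lu-neg values for 5 genes (Thbs1, Itgb8, Itga2, Itga8 and Lamb1), a separation that 1.34% of all genes showed. They lay below all 7 Lu-neg values for 1 gene (Lama5), as they did for 1.67% of all genes. The plot of the called genes by array shows each of these values.

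**Figure D1:**
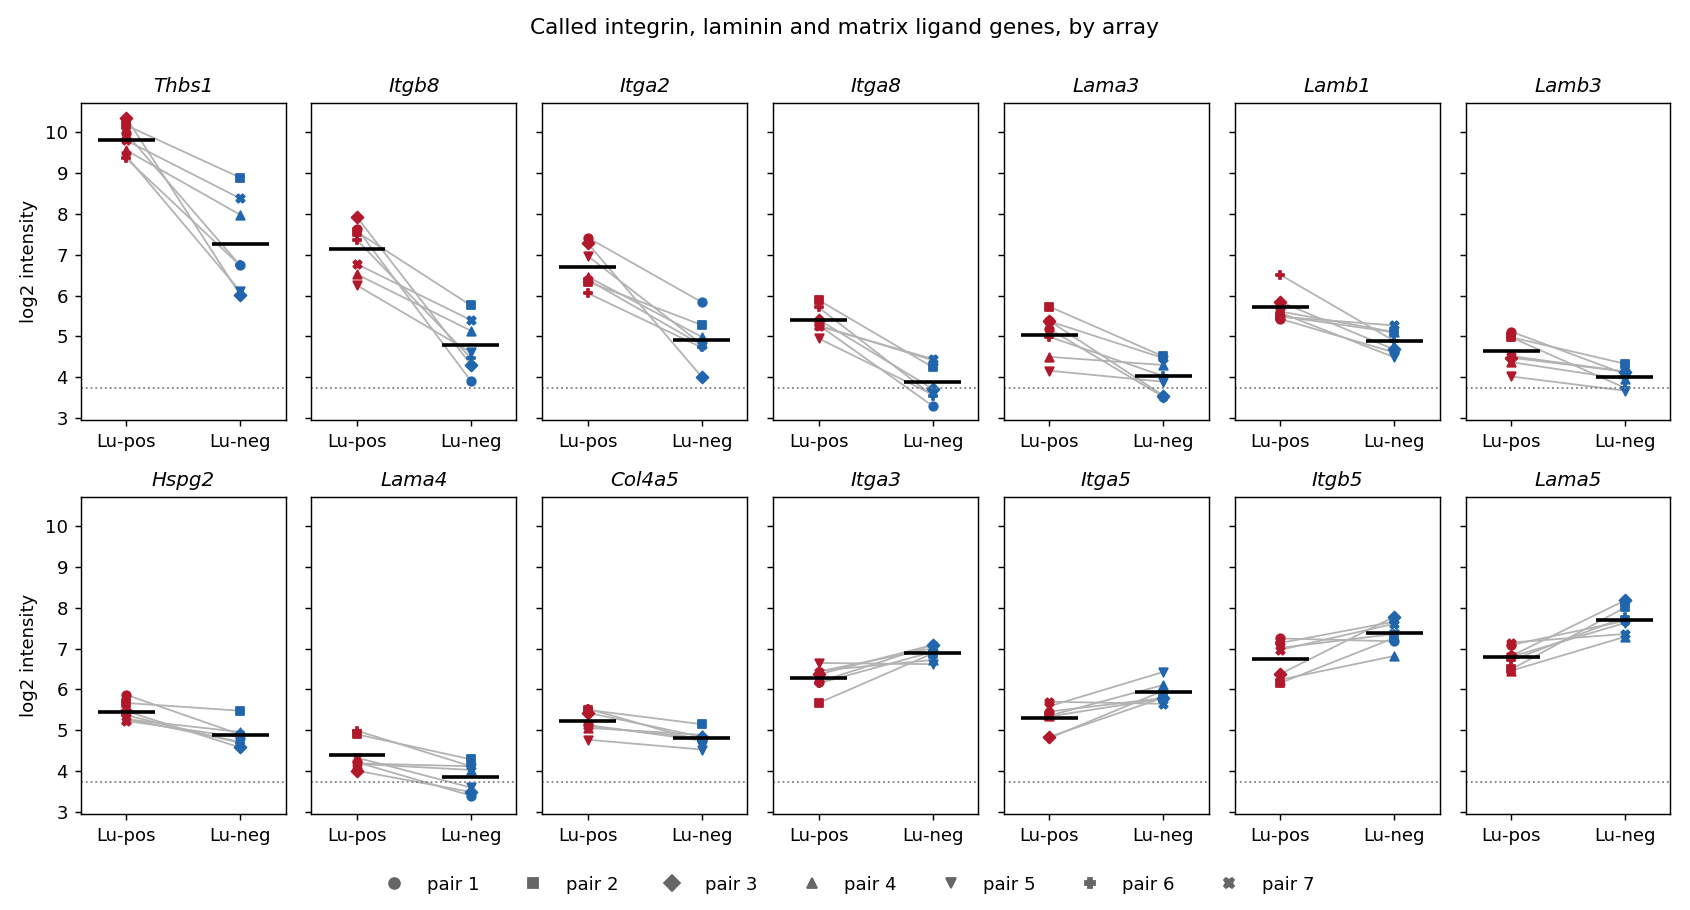
Log2 intensity of the 14 called genes in each array, Lu-pos on the left and Lu-neg on the right of every panel, with symbols for the 7 pairs, lines joining the arrays of a pair, bars at the group means and a dotted line at the background level of 3.73. The groups separate completely for Thbs1, Itgb8, Itga2, Itga8, Lamb1 and Lama5 and overlap for the other 8 genes.

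Among integrin alpha chains, the collagen-binding chain Itga2 was higher in Lu-pos. Its level was 6.06 at the lowest, 6.46 at the median and 7.42 at the highest in Lu-pos arrays, against 4.01, 4.81 and 5.84 in Lu-neg arrays. The groups did not overlap. The difference was 1.78 ± 0.23 on the log2 scale (SE, n = 7 pairs), a 3.44-fold higher level in 7 of 7 pairs (adjusted p = 0.00162). The other collagen-binding chains measured, Itga1 and Itga11, were below background in both populations.

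Itga8, whose product pairs with the beta chain of Itgb1 and binds RGD-containing ligands such as nephronectin, was also higher. Lu-pos arrays read 4.95, 5.28 and 5.89 at the lowest, median and highest, against 3.30, 3.72 and 4.45 in Lu-neg arrays. Every Lu-pos value was above the background level of 3.73, whereas Lu-neg values lay on both sides of it. The difference was 1.499 ± 0.17 on the log2 scale (SE, n = 7 pairs), or 2.83-fold, with an adjusted p of 0.000962.

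Itga5, the alpha chain of the classical fibronectin receptor, moved the other way. It read 4.81, 5.36 and 5.70 at the lowest, median and highest in Lu-pos arrays, against 5.65, 5.80 and 6.43 in Lu-neg arrays, so that the groups met at their edges. The log2 fold change was -0.63 ± 0.14 (SE, n = 7 pairs, adjusted p = 0.0184), lower in 6 of 7 pairs, and without pair 3 the adjusted p was 0.0518. Itgav, the alpha chain shared by several vitronectin and fibronectin receptors, read 7.26 to 8.59 in Lu-pos and 7.33 to 8.74 in Lu-neg. Its log2 fold change was -0.08 with a 95% interval of -0.28 to 0.12. A further probe set of Itgav gave 0.35 (adjusted p = 0.159), so the direction of this gene was not settled by its probe sets.

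Of the laminin-binding alpha chains, Itga3 was lower in Lu-pos, at 5.67, 6.37 and 6.65 for the lowest, median and highest array, against 6.62, 6.92 and 7.09 in Lu-neg. Only the highest Lu-pos and the lowest Lu-neg arrays overlapped, and both belong to pair 5. The log2 fold change was -0.63 ± 0.14 (SE, n = 7 pairs, adjusted p = 0.0182), lower in 6 of 7 pairs, and without pair 1 the adjusted p was 0.0525. Itga6, whose product pairs with the chains of Itgb1 and Itgb4 and is widely used to sort mammary epithelial cells, had means of 8.44 ± 0.27 in Lu-pos and 8.62 ± 0.27 in Lu-neg (SD, n = 7 each). Its log2 fold change of -0.18 had a 95% interval of -0.49 to 0.13 (adjusted p = 0.527). Itga7, the third laminin-binding chain measured, was below background.

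The alpha chains of leukocyte integrins, Itgad, Itgae, Itgal, Itgam and Itgax, were all below background, and so were Itga4, Itga9 and the platelet chain Itga2b. Of 17 integrin alpha genes measured, 6 were above background.

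Among 8 integrin beta chains, Itgb8 showed the widest difference. Its product pairs with the chain of Itgav and is known to activate latent TGF-beta. Itgb8 read 6.25, 7.36 and 7.92 at the lowest, median and highest in Lu-pos arrays, against 3.91, 4.61 and 5.76 in Lu-neg arrays. The groups did not overlap. The difference was 2.35 ± 0.32 on the log2 scale (SE, n = 7 pairs), a 5.08-fold higher level in 7 of 7 pairs (adjusted p = 0.00203).

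Itgb5, whose product also pairs with the chain of Itgav and binds vitronectin, was lower in Lu-pos. The lowest, median and highest values were 6.16, 6.97 and 7.25 in Lu-pos arrays, against 6.82, 7.36 and 7.78 in Lu-neg arrays, and the groups overlapped. The log2 fold change was -0.64 ± 0.16 (SE, n = 7 pairs, adjusted p = 0.0291), lower in 6 of 7 pairs. Its call was lost when any 1 of pairs 2, 3, 4, 6 and 7 was left out, with adjusted p from 0.0571 to 0.0773.

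Itgb1, the beta chain shared by most matrix-binding integrins, averaged 8.36 ± 0.17 in Lu-pos and 8.35 ± 0.13 in Lu-neg (SD, n = 7 each). Its log2 fold change was 0.01, with a 95% interval of -0.17 to 0.19. Itgb4, the hemidesmosomal beta chain, averaged 6.20 ± 0.17 in Lu-pos and 6.24 ± 0.23 in Lu-neg, and the interval of its log2 fold change ran from -0.28 to 0.21. Differences of 1.5-fold lie outside both intervals. Itgb6, named here after its values were seen, had a log2 fold change of 0.26 (adjusted p = 0.342), and Itgb2, Itgb3 and Itgb7 were below background in both populations.

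The RefSeq promoter windows of the called genes were examined because the levels of these genes differ between the populations. Windows from 250 bases before to 50 bases after the transcript start were found for 35 of the 52 genes and 11 of the 14 called genes; Thbs1, Lama3 and Lama4 are named only. The windows below belong to the 3 integrin genes with higher levels in Lu-pos and to the laminin gene with a lower level, all on the minus strand of GRCm38.p6. They lie at chr12:119238227-119238526 (Itgb8), chr13:114932051-114932350 (Itga2), chr2:12301895-12302194 (Itga8) and chr2:180225810-180226109 (Lama5), and capitals mark the GC box GGGCGG or its reverse complement CCGCCC.
Itgb8: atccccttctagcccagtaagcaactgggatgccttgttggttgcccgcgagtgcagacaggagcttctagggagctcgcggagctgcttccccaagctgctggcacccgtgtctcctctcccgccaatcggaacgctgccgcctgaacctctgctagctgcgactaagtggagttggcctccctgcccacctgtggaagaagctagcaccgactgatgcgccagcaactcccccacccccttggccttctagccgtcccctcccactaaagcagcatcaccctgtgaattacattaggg
Itga2: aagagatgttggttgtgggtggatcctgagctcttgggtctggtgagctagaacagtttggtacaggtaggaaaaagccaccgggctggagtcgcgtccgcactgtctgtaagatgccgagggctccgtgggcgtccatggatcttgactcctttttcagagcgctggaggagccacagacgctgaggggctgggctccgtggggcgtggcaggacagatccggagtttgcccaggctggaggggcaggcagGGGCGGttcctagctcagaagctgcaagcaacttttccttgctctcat
Itga8: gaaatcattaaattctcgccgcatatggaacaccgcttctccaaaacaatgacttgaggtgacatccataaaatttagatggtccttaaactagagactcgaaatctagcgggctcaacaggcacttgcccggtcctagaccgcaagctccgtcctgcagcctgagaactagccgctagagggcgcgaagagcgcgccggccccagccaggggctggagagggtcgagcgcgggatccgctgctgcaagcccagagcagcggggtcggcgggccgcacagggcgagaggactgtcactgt
Lama5: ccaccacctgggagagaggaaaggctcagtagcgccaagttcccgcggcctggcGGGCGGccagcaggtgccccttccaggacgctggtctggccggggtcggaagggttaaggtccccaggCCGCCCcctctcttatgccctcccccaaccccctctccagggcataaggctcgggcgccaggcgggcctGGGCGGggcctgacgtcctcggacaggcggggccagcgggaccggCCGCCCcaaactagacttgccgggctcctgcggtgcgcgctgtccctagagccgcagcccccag
The Lama5 window holds 4 GC boxes and 72.7% G and C bases, and the Itga2 window holds 1 box and 59.3%. The windows of Itgb8, at 60.7% G and C, and Itga8, at 59%, hold 0 boxes. The 11 called genes with a window have 13 windows, of which 9 hold at least 1 GC box, as do 35.7% of 32851 windows of this length. These 9 belong to 8 genes, among them all 4 called lower. All windows were counted without regard to expression, and windows of genes above background or of uncalled members were not counted apart. On both strands, the AP-1 letters TGACTCA occurred in 0 of the 13 windows and in 5.2% of all windows. The TATA letters TATAAA occurred in 0 of the 13 windows and 13.6% of all windows, and the TEAD letters CATTCC in 1 window, of Lamb3, and 14.7% of all windows. These counts describe letters in the windows only, and overlapping matches of different motifs were counted separately.

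Laminin chains moved in both directions. Of 10 measured, 7 were above background, 4 were higher in Lu-pos, and 1 was lower, with a median log2 fold change of 0.09. Lama5, the alpha chain of the most widespread epithelial laminins, was the chain that was lower. It read 6.46, 6.80 and 7.15 at the lowest, median and highest in Lu-pos arrays, against 7.29, 7.68 and 8.18 in Lu-neg arrays. The groups did not overlap, and the difference held in 7 of 7 pairs. The log2 fold change was -0.91 ± 0.15 (SE, n = 7 pairs), a 1.88-fold lower level (adjusted p = 0.00466).

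Lama3, the alpha chain of the laminin that anchors hemidesmosomes, was 2.01-fold higher in Lu-pos. Its values were 4.16, 5.18 and 5.73 at the lowest, median and highest in Lu-pos arrays, against 3.52, 4.03 and 4.51 in Lu-neg arrays, and the groups overlapped. The log2 difference was 1.01 ± 0.20 (SE, n = 7 pairs, adjusted p = 0.0110). Lamb3, the beta chain of the same laminin, read 4.02, 4.52 and 5.12 in Lu-pos arrays, against 3.67, 4.08 and 4.33 in Lu-neg arrays. It was higher by 0.63 ± 0.13 on the log2 scale (SE, adjusted p = 0.0122), with overlapping groups. Both genes were higher in 7 of 7 pairs.

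Lamb1, a beta chain of many basement membrane laminins, read 5.43, 5.58 and 6.51 at the lowest, median and highest in Lu-pos arrays, against 4.49, 4.89 and 5.27 in Lu-neg arrays. The groups did not overlap, and the top value, in Lu-pos 6, was well above the next at 5.85. The log2 difference was 0.83 ± 0.16 (SE, n = 7 pairs, adjusted p = 0.0105). Lama4, an alpha chain best known from vessel walls, read 4.01 to 4.99 in Lu-pos and 3.40 to 4.29 in Lu-neg. It was higher by 0.54 ± 0.12 (SE, adjusted p = 0.0154), and the endothelial marker mean was higher in Lu-pos in pairs 1 and 5 but lower in the other 5 pairs. The cells were sorted with antibodies to the endothelial marker CD31 as well, and the part of endothelial cells in the Lama4 level was not tested.

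The gamma chain Lamc1, part of most laminins, was lower in Lu-pos in 7 of 7 pairs without being called. Its means were 6.52 ± 0.41 in Lu-pos and 6.95 ± 0.48 in Lu-neg (SD, n = 7 each), and the log2 fold change was -0.43 ± 0.15 (SE, adjusted p = 0.104). Lamb2 had a log2 fold change of -0.24 (adjusted p = 0.227). Lama1, Lama2 and Lamc3 were below background.

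**Figure D2:**
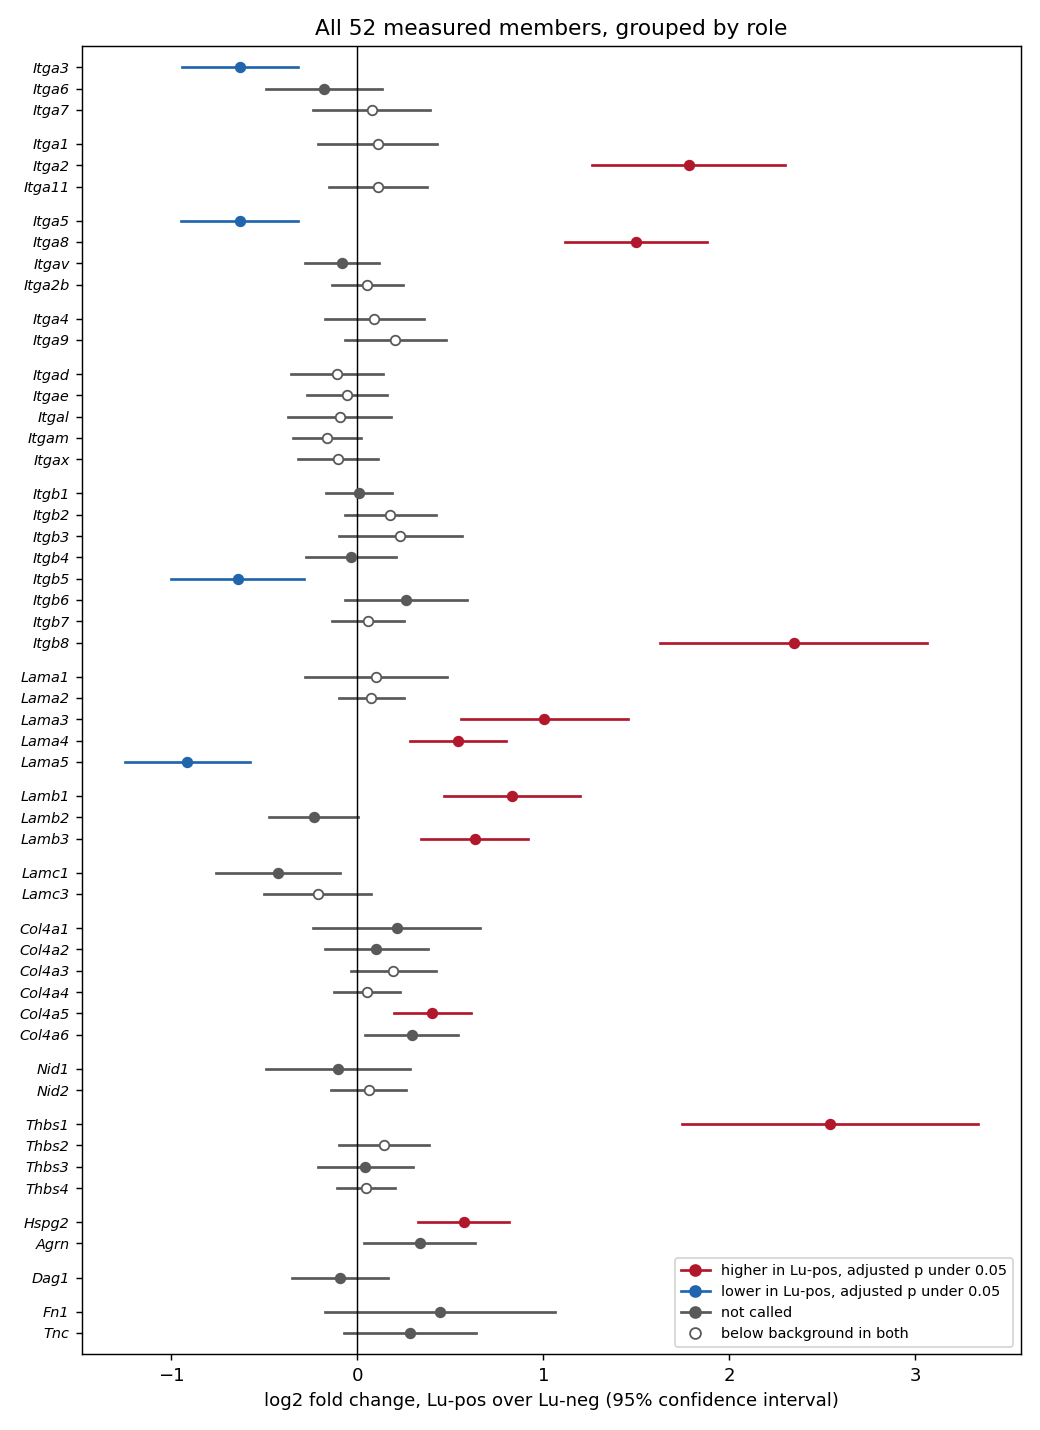
Log2 fold change of Lu-pos over Lu-neg with its 95% confidence interval for each of the 52 genes, grouped by role from top to bottom, in red where higher and blue where lower in Lu-pos at an adjusted p below 0.05, grey where not called, and with open circles for genes below background in both populations. The 22 genes below background are all uncalled, and the uncalled values lie between -0.43 and 0.44.

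Of the other matrix genes, 17 in all, 12 were above background, 3 were higher in Lu-pos and 0 were lower. Thbs1, which encodes a secreted glycoprotein that binds CD47, CD36 and integrins and can activate TGF-beta, had the largest difference of the 52 genes. It read 9.36, 9.80 and 10.36 at the lowest, median and highest in Lu-pos arrays, against 6.02, 6.74 and 8.89 in Lu-neg arrays. The groups did not overlap, and the Lu-neg arrays were the more spread, with an SD of 0.38 in Lu-pos and 1.14 in Lu-neg. The difference was 2.54 ± 0.35 on the log2 scale (SE, n = 7 pairs), or 5.82-fold, in 7 of 7 pairs (adjusted p = 0.00225). Thbs3 had a log2 fold change of 0.04 (95% interval -0.21 to 0.30), and Thbs2 and Thbs4 were below background.

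Hspg2, which encodes the basement membrane proteoglycan perlecan, was 1.49-fold higher in Lu-pos. It read 5.23, 5.37 and 5.87 at the lowest, median and highest in Lu-pos arrays, against 4.58, 4.83 and 5.48 in Lu-neg arrays. Only Lu-neg 2, at 5.48, reached into the Lu-pos range. The log2 difference was 0.57 ± 0.11 (SE, n = 7 pairs, adjusted p = 0.00947). Agrn, the gene of the proteoglycan agrin, had a log2 fold change of 0.33 (adjusted p = 0.158; 0.0415 without pair 3), and Dag1, which encodes dystroglycan, had one of -0.09 (95% interval -0.35 to 0.17).

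Among collagen IV chains, Col4a5 was called. Its Lu-pos arrays read 4.77 to 5.53 and its Lu-neg arrays 4.53 to 5.15, with a log2 difference of 0.40 ± 0.09 (SE, n = 7 pairs, adjusted p = 0.0209) in 7 of 7 pairs. Without pair 3 the adjusted p was 0.057 and without pair 6 it was 0.0505. Col4a1, a chain of the ubiquitous collagen IV network, had a log2 fold change of 0.21 (95% interval -0.24 to 0.66), and Col4a3 and Col4a4 were below background.

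Col4a6, the partner chain of Col4a5, differed more between pools than between populations. Its log2 fold change was 0.29 (adjusted p = 0.145), whereas in pairs 1 to 3 its level was 4.93 to 5.67 in Lu-pos and 4.20 to 5.00 in Lu-neg, and in pairs 4 to 7 it was 3.47 to 3.95 in Lu-pos and 3.37 to 3.79 in Lu-neg. Its levels in pairs 1 to 3 did not overlap those in pairs 4 to 7, in the same direction in both populations. It was the 1 gene of the 52 with this split, which 2.39% of all genes showed. A count of 1 in 52 is close to that share. No label used here separates these pools, and the split was taken up after values of these arrays had been seen. Mean differences also varied between them: Lama3 was higher in Lu-pos by 1.57 over pairs 1 to 3 and by 0.58 over pairs 4 to 7, and Itgb8 by 3.05 and 1.82. These contrasts between pools were not tested.

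Nid1, which encodes a linker of laminin and collagen IV, had a log2 fold change of -0.10 from its brightest probe set and 0.29 from a further one, and neither was called. Nid2 was below background. Fn1, the fibronectin gene, read 4.19, 4.70 and 7.06 at the lowest, median and highest in Lu-pos arrays, against 3.80, 4.54 and 5.39 in Lu-neg arrays. The highest value was that of Lu-pos 6, which also had the highest fibroblast marker mean, 5.44, and the highest Lu-pos basal marker mean, 6.19. The part of those cells in the Fn1 value was not tested. The log2 fold change of Fn1 was 0.44 ± 0.27 (SE, adjusted p = 0.401). Tnc, the tenascin C gene, was above background in Lu-pos only, at a mean of 4.01 against 3.72 in Lu-neg, and was not called (adjusted p = 0.339).

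For 3 of the 14 called genes, Thbs1, Lamb1 and Hspg2, the smallest differences fell in the pairs in which the basal markers were not clearly higher in Lu-pos, a pattern looked for after the values were seen. The other 11 genes did not have their 3 smallest differences in those pairs. The share of all genes with this pattern was not counted, so 3 of 14 is not read as a trait of these genes. In pairs 2, 4 and 7 the basal marker mean in Lu-pos minus that in Lu-neg was -0.50, 0.01 and -1.59, and the Thbs1 differences were 1.28, 1.58 and 1.42. In pairs 1, 3, 5 and 6 the basal difference was 0.72 to 1.45 and the Thbs1 difference 2.62 to 4.34. Lu-neg 2, 4 and 7, with basal means of 6.60, 5.09 and 6.60, were the Lu-neg arrays with the highest Thbs1 levels, at 8.89, 7.98 and 8.38. Lu-neg 6, however, had a basal mean of 5.02 and a Thbs1 level of 6.74. Among Lu-pos arrays, Lu-pos 6 had the highest basal mean, 6.19, and the lowest Thbs1 level, 9.36, and Lu-pos 3 had a basal mean of 5.28 and the highest Thbs1 level, 10.36. Lamb1 and Hspg2 likewise had their 3 smallest differences in pairs 2, 4 and 7, from 0.21 to 0.50 for Lamb1 and from 0.19 to 0.40 for Hspg2.

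With the basal marker mean of each array as a covariate, a model chosen after the data were seen, all 14 genes were still called, while 3.5% of all genes were called higher and 5.87% lower. Thbs1 then had a log2 fold change of 2.25 ± 0.24, Itgb8 2.09 ± 0.23, Itga8 1.37 ± 0.14 and Lamb1 0.70 ± 0.12 (SE). The covariate itself differed little between the populations: no basal marker was called, and its pair differences had both signs, from -1.59 to 1.45. Such a covariate can move the fold changes only to a limited extent, so the calls kept do not settle the part of basal cells. With pairs 2 and 7 left out, 7 genes were higher and 2 lower, against 2.48% of all genes higher and 3.95% lower. The Thbs1 and Itgb8 differences were then 3.02 ± 0.34 and 2.65 ± 0.37 (SE). Both had to rise, because pairs 2 and 7 lay below the 7-pair means, at 1.28 and 1.42 for Thbs1 and 1.80 and 1.37 for Itgb8. In the pairs kept, the basal marker mean was higher in Lu-pos by 0.01 to 1.45. This setting therefore does not remove a basal difference, and the part of basal cells was not tested. The 5 genes that lost their call were Itga3, Itgb5, Lama3, Lamb3 and Col4a5, with log2 fold changes of -0.53, -0.55, 0.98, 0.68 and 0.44.

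**Figure D3:**
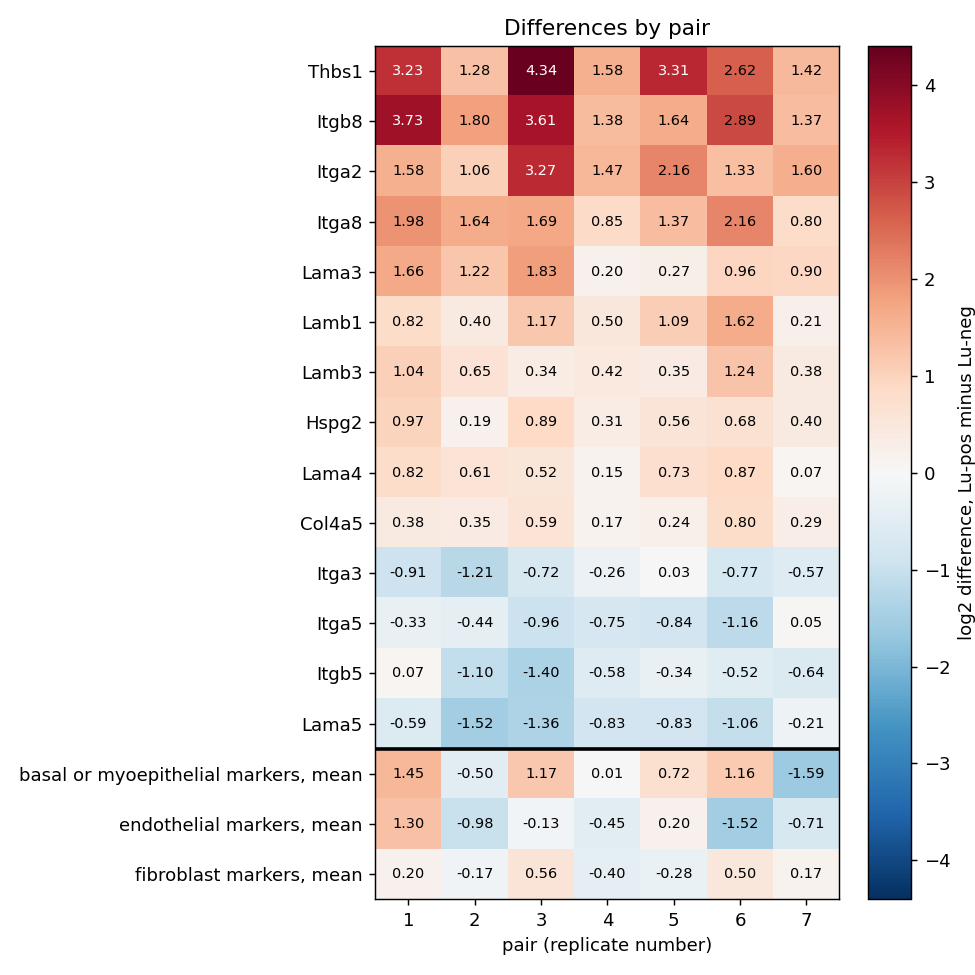
Log2 difference of Lu-pos minus Lu-neg in each of the 7 pairs (columns) for the 14 called genes, with the mean differences of basal or myoepithelial, endothelial and fibroblast markers under the black line; red is higher and blue lower in Lu-pos. Pairs 2, 4 and 7, in which the basal marker mean differed by -0.50, 0.01 and -1.59, hold the smallest Thbs1, Lamb1 and Hspg2 differences.

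Receptor and ligand genes were also set out as the protein complexes that textbooks give for them. Of 24 integrin pairs of an alpha and a beta chain, 10 had both genes above background in Lu-pos and 10 in Lu-neg, and 1 could not be judged because Itga10 was not analysed. Of 3 collagen IV chain sets, 2 were complete in Lu-pos and 2 in Lu-neg. Presence of transcripts does not show that the proteins were assembled.

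Genes that work with these receptors were read from lists of the pathway, and only the listed genes that were measured are counted. These were 27 of 31 activators and adaptors, 17 of 19 kinases and substrates, 20 of 26 dystroglycan genes and 35 of 37 further ligands. Ilk was not among the 27, and Ptk2 was not among the 17. Among 27 activators and adaptors that link integrins to actin, 7 were higher and 3 lower in Lu-pos, with a median log2 fold change of 0.21. Tns3, a tensin, was higher by 1.29 ± 0.26 (SE, adjusted p = 0.0114) and Tln2, a talin that activates integrins, by 1.02 ± 0.10 (SE, adjusted p = 0.000549). Flna, Rap1b, Actn4, Parva and Vcl were also higher. The 3 lower genes were Itgb1bp1, an inhibitor of integrin activation (-0.90 ± 0.11), Tes, a focal adhesion protein (-0.76 ± 0.16), and Sharpin, another inhibitor of integrin activation (-0.45 ± 0.09). Among 17 adhesion kinases and their substrates, 2 were higher, the Rac activators Elmo1 (1.09 ± 0.19) and Dock1 (0.63 ± 0.13), and 2 lower, the kinase Ptk2b (-1.004 ± 0.17) and the caveolin Cav1 (-0.69 ± 0.19), with a median of -0.01. The call of Cav1 was lost when any 1 of pairs 2 to 7 was left out, with adjusted p from 0.0783 to 0.11.

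Of 9 genes of hemidesmosomes and of membrane proteins bound to integrins, 2 were higher and 5 lower, with a median of -0.35. The higher ones were Cd47, a thrombospondin receptor (1.15 ± 0.19, adjusted p = 0.00442), and the tetraspanin Cd81 (1.12 ± 0.13). The lower ones were Dst, which encodes a plakin that ties hemidesmosomes to keratin (-0.99 ± 0.13, adjusted p = 0.00162), Cd151, the laminin receptor's tetraspanin (-0.63 ± 0.17), Plec, Cd82 and Cd9. The call of Cd151 was lost without any 1 of pairs 2, 3, 4, 5 and 7, with adjusted p from 0.0685 to 0.0996. Among 20 dystroglycan complex and glycosylation genes, 1 was higher (Dtna, 0.52 ± 0.09) and 3 were lower, Large2 (-0.80 ± 0.18), Utrn (-0.67 ± 0.09) and Pomgnt1, with a median of 0.00. The call of Large2 was lost without pair 2, 3 or 4, at adjusted p from 0.0509 to 0.0561.

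Among 15 other matrix receptors, 3 were higher and 2 lower, with a median of 0.14. Cd44, the hyaluronan receptor, was higher by 1.93 ± 0.15 (SE, adjusted p = 0.000352) in 7 of 7 pairs, whereas the glypican Gpc1 (-0.92 ± 0.13) and the syndecan Sdc2 (-0.58 ± 0.08) were lower. The syndecan Sdc3 (0.59 ± 0.15) and the glypican Gpc4 were higher, and Sdc3 lost its call without any 1 of pairs 1, 2, 5, 6 and 7 (adjusted p from 0.0635 to 0.078). Among 22 other basement membrane genes, 1 was higher, the netrin Ntn1 (1.497 ± 0.26), and 2 were lower, Ecm1 (-1.22 ± 0.24) and Npnt (-0.96 ± 0.14). Npnt encodes nephronectin, a ligand of the receptor that contains the Itga8 chain, so that ligand and receptor genes differed in opposite directions (adjusted p = 0.00293 for Npnt).

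Of 35 further integrin ligands and interstitial matrix genes, 5 were higher and 4 lower, with a median of 0.06. The matricellular genes Ccn2 (2.16 ± 0.27) and Ccn1, Mfge8, which encodes an RGD protein of milk fat globules (2.02 ± 0.25), Postn and the sorted Icam1 were higher. The fibrinogen genes Fgg (-2.25 ± 0.41) and Fgb (-2.20 ± 0.45), Adam9 and Vwf were lower, and Vwf is also an endothelial marker. For comparison, 4.35% of all genes were higher and 7.19% lower.

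**Figure D4:**
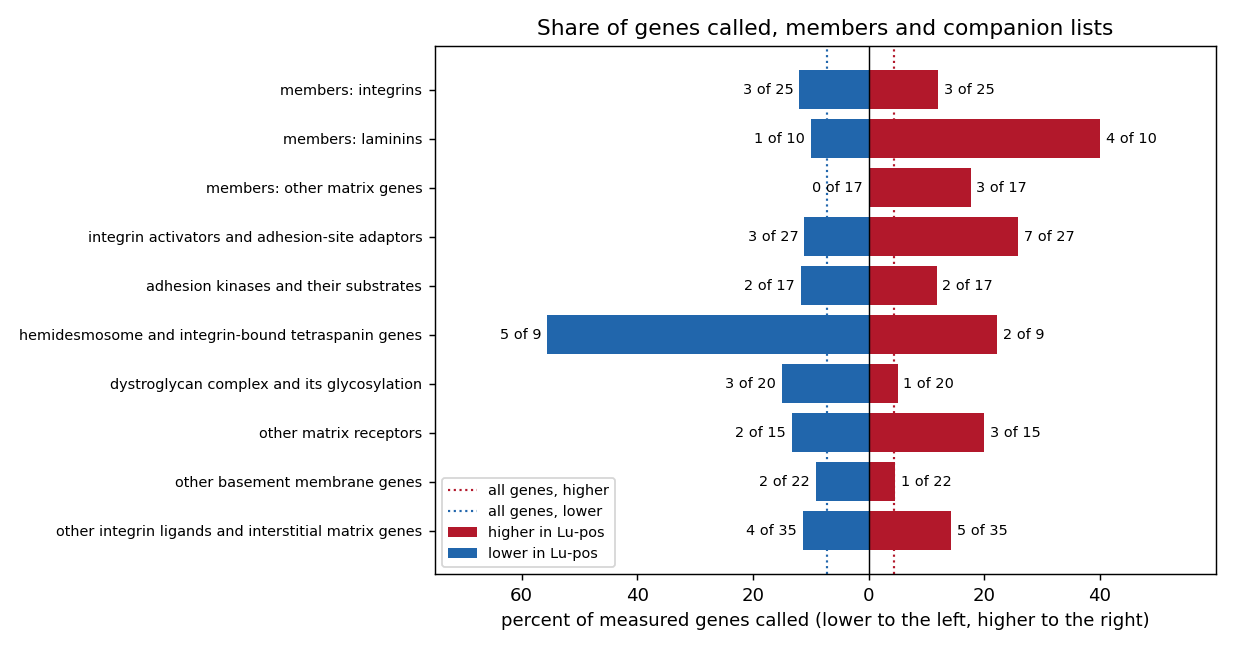
Percent of measured genes called lower in Lu-pos (blue, to the left) and higher in Lu-pos (red, to the right) for 3 classes of the 52 genes and for 7 lists of genes that work with them, with the counts beside each bar and dotted lines at the shares of all genes, 7.19% lower and 4.35% higher. Laminins have 4 of 10 genes higher, and the hemidesmosome and tetraspanin list has 5 of 9 lower.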

How the data were processed

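RNA of 7 Lu-pos and 7 Lu-neg samples, grouped and paired by the sample labels, was measured on Affymetrix arrays. Per the labels, 500 pg of total RNA was amplified by the Nugen Ovation (SPIA) method, whereas the paper's methods state a larger input. The authors deposited log2 intensities per probe set, and the tools in the submitters' processing notes are Affymetrix Expression Console and RMA, with versions not given. The study's quantile normalization with the EASANA software was not redone. Arrays have no depth in reads; their number limits the precision.

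Of 41345 probe sets, 23521 carry 1 gene symbol, 1820 several and 16004 none in the annotation used, which names no genome build. The brightest probe set stood for each of 1082 genes with several. All 52 members matched RefSeq. Lu-pos and Lu-neg were compared with lmFit and eBayes of limma 3.58.1 in R 4.3.3, with the pair as a block, as in the paired design of the study, and Benjamini-Hochberg adjustment over 22180 genes. No gene was filtered. The series' design calls the samples paired; deviations from the group means correlated at 0.17 to 0.26 within the 7 pairs. The code was tested on simulated data. Promoter windows came from RefSeq (GRCm38.p6) and were searched in Python 3.11.15.

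Named were all called members and, in each role, up to 2 of the brightest uncalled members above background. Per companion list, the 2 called genes that rose most and the 2 that fell most were named. Further genes were chosen after their values were seen. The members and lists were chosen with earlier results of these data known. Alternatives were the fit without the block, the methods' t-test, eBayes with trend and robust, array weights, the mean of probe sets, other scalings, other background levels, and leaving out pairs; 2 more were chosen after seeing the data.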

Additional observations from a re-analysis of the deposited data

Results flagged for a closer look

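In 4 of the 60 groups of 7 arrays examined, the highest or lowest array lay far from the others by Dixon's 95% criterion, and chance flags about 1 in 20 such groups. Lamb1 in Lu-pos 6 was 6.51, with the next array at 5.85 and the lowest at 5.43 (gap over range 0.611). Fn1 in Lu-pos 6 was 7.06, with the next at 5.41 and the lowest at 4.19 (0.575). The same array had the highest fibroblast marker mean, 5.44. Hspg2 in Lu-neg 2 was 5.48, with the next at 4.96 and the lowest at 4.58 (0.578), and Itgb6 in Lu-neg 2 was 3.99, with the next at 4.87 and the highest at 5.37 (0.638). Lu-neg 2 had a basal marker mean of 6.60, equal to that of Lu-neg 7 and above the other Lu-neg arrays. The part of these marker levels in the 4 values was not tested.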

How the results depend on the processing

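The number of arrays limits these results, and 22 of the 52 genes lay below background, as did 10755 of all 22180 genes. Itga8, Itgb8 and Thbs1 were called in all 19 settings that were run. Of the 10 higher and 4 lower genes, 8 and 3 were called with no replicate block (Itgb5, Lama4 and Col4a5 lost), 5 and 1 by the methods' t-test with Benjamini-Hochberg adjustment, 4 and 2 in pairs 1 to 3 alone, 4 and 1 in pairs 4 to 7 alone, and 7 and 2 with pairs 2 and 7 left out. At the methods' threshold of an uncorrected p and 1.5-fold, that test gave 7 and 4. Leaving out 1 pair gave 9 to 10 higher and 2 to 4 lower; without pair 3, Itga5 and Itgb5 were lost among the lower genes and Col4a5 among the higher, while Agrn was gained (adjusted p = 0.0415). The losses in smaller sets follow in part from fewer samples. Scaling to 6 housekeeping genes moved the median of all genes by 0.11 and left 10 higher and 2 lower (Itga5 and Itgb5 lost); 59.8% of all called genes were then higher, against 37.7% as deposited.

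Changes of sign occurred only in genes that were not called. Itga6 was 0.14 in pairs 4 to 7. Itgav was 0.13 with the mean of its probe sets, 0.030 with housekeeping scaling and 0.35 in its further probe set. Itgb1 was -0.10 in pairs 1 to 3 and -0.022 to 0.043 with 1 pair left out. Itgb4 was 0.078 with housekeeping scaling, 0.022 in pairs 4 to 7 and -0.078 to 0.052 with 1 pair left out. Nid1 was 0.094 with the mean of its probe sets, 0.011 with housekeeping scaling, 0.092 without pairs 2 and 7, 0.29 in its further probe set and -0.26 to 0.048 with 1 pair left out. Thbs3 was -0.0033 in pairs 1 to 3 and -0.028 to 0.15 with 1 pair left out. Dag1 was 0.021 with housekeeping scaling and 0.022 in pairs 4 to 7. The causes were not tested.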
